A study of Mus musculus with 2 samples.

Results

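B lineage genes were read out in M-MDSCs (monocytic myeloid-derived suppressor cells) taken from 4T1 tumours, 4T1 being a mouse mammary carcinoma line. The 32 genes cover B cell development from the precursor to the plasma cell and were chosen by name, with earlier results of these data known. They comprise 8 precursor genes, 21 genes of mature or all B cells and 3 plasma cell genes. They are 32 of 20653 genes that could be named on the arrays through a RefSeq transcript, and every one of them had at least 1 probe. All mice were female, of the strain background BABL/c, and carried 1000000 injected 4T1 cells. The NSD group had 0.4% NaCl in its chow and tap water, and the HSD group had 4% NaCl in its chow and 1% NaCl in its water, each for 16 days. The labels give no age. The cells were enriched with magnetic beads, the cells of a group were mixed in equal numbers, and each mixture was hybridised to 1 array. The comparison asks how B lineage transcripts in this preparation differed between the diets. With 1 pooled array per diet there is no spread between mice, so no test was run, and a gene is called here only by its size, when it was at least 1.5-fold apart (a log2 fold change of 0.585 on either side of 0).

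B cells arise from lymphoid precursors in the bone marrow, where the RAG recombinase joins the gene segments of the antibody chains. A precursor tests its new heavy chain with a surrogate light chain, and a mature B cell carries the finished antibody on its surface, coupled to the signalling chains CD79a and CD79b. Pax5 and Ebf1 hold the identity of the lineage, which is given up when a B cell becomes an antibody-secreting plasma cell. Tumours can hold B cells, whereas M-MDSCs belong to the myeloid lineage.

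Igll1, Bank1 and Jchain were the members past 1.5-fold, and the bases before their start sites are shown for that reason. RefSeq start sites of assembly GRCm38.p6 were given for 26 of the 32 members. The capitals mark CCCNNGGG, the core of the Ebf1 motif, and the sequences run 5′ to 3′ on the strand of the gene. Igll1 is shown by the 250 bases before its start (chr16:16863986-16864235, minus strand), Jchain by its 250 bases (chr5:88527898-88528147, minus strand), and Bank1 by the 30 bases around its motif (chr3:136326069-136326098, minus strand), since its window overlaps the start of another transcript.
Igll1: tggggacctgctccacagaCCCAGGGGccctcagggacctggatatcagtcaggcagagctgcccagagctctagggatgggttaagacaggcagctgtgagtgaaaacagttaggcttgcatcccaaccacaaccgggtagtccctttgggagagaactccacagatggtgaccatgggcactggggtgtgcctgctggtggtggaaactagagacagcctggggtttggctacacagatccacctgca
Bank1: tgcggcctgagCCCCTGGGctgcatttccg
Jchain: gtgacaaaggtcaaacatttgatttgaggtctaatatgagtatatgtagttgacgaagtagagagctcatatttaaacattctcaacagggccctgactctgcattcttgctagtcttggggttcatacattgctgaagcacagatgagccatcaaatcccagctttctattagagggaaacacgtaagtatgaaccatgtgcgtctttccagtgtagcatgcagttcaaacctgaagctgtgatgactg
The Ebf1 core begins 231 bases before the start of Igll1 and 21 bases before that of Bank1, and the bases of Jchain hold none of the motifs searched. It was also found before Cd22 and Spib, so 4 of the 26 members held it in the 250 bases, read on both strands, against 11.8% of all 32851 RefSeq windows of this length. Members are counted as genes, with 30 windows between them, whereas the shares over all are counted per window. The octamer ATTTGCAT, which Pou2af1 acts on together with POU factors, was found before Blnk and Vpreb3, and 1.60% of all windows held it. The letters GAGGAAGT, bound by Spi-B and PU.1, were found before Btla, Cd37 and Cd72, and 2.44% of all windows held them. These matches are letters in a window and not measured binding.

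Most B lineage genes had log2 fold changes slightly above 0, and few were past 1.5-fold. Of the 32 members, 31 were well above background on 1 or both arrays and 30 on both. Of the 31, 26 had a log2 fold change above 0 and 5 below, where 54.2% of the 16332 genes well above background were above 0. The median log2 fold change of the members was 0.42, beside 0.045 over all genes with a value. Igll1, Bank1 and Jchain, 3 of the 31 members, were at least 1.5-fold higher, where 9.85% of all genes were, so their share of changes this large was like that of all genes. No member was at least 1.5-fold lower, where 10.3% of all genes were, and 20.1% of all genes were that far apart in either direction. Igll1 had to differ to enter the count, as only the HSD array read it above background. That leaves 2 of the 30 members read on both arrays, where 1344 of the 15209 genes so read were at least 1.5-fold higher. In such mixtures, more cells of a type and more RNA per cell cannot be told apart.

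**Figure D1:**
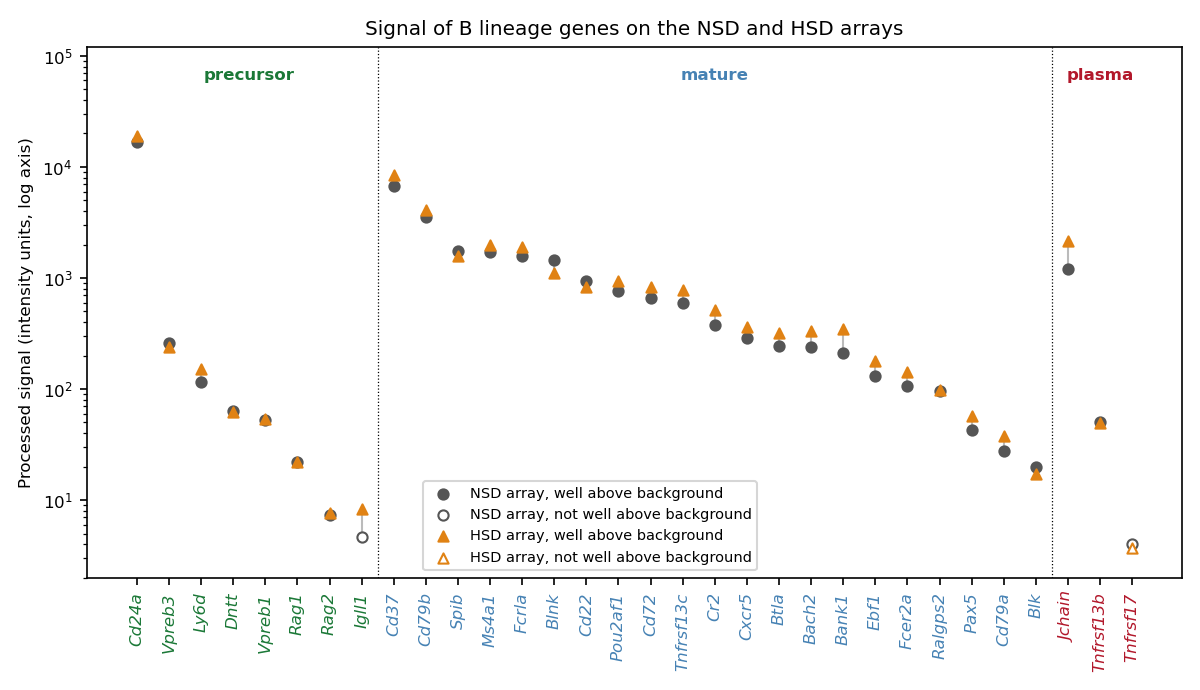
Processed signal of the 32 B lineage genes (intensity units, log axis) on the NSD array (circles) and the HSD array (triangles), ordered within precursor, mature and plasma cell genes by NSD signal, with open symbols where the probe was not well above background. Signals ran from 3.68 for Tnfrsf17 to 18953 for Cd24a, and brightness is not comparable between probes.

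The arrays carried few technical repeats. A spot is 1 printed copy of a probe, and the probe used for the gene had 1 spot per array in 31 of the members. Only for Ralgps2 did the probe used have 10 spots. For 289 probes printed several times and read above background with both diets, the median SD between spots of the same array was 0.082 on the log2 scale, 0.140 at signals below 100 intensity units and 0.060 at signals above 1000. This SD covers the reading of an array and not mice or cell preparations. Before the fold change, each array was scaled on its 75th percentile, 252.2 intensity units for NSD and 232.9 for HSD, which adds 0.11 to every log2 fold change and is why a gene of equal signal on both arrays lies slightly above 0.

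The genes of B cell precursors differed little between the diets. Their median log2 fold change was 0.17, with 7 of the 8 above 0 and 1 at least 1.5-fold higher. Rag1 and Rag2, which encode the recombinase and are neighbours on chromosome 2, both had low signals. Rag1 had 21.8 intensity units on each array (log2 fold change 0.11), and its second probe was too dim on both arrays. Rag2 had 7.36 with NSD and 7.68 with HSD (log2 fold change 0.18). Both recombinase genes were far below 1.5-fold. The second Rag2 probe, with 9 spots used on the NSD array, was also too dim on both arrays (1.20 with NSD and 1.37 with HSD). Dntt, which encodes the enzyme that adds bases at the joints, had 63.1 and 61.8 (log2 fold change 0.084, and −0.030 without scaling). The genes of antibody gene assembly thus read close to level between the diets, but Rag1 and Rag2 had low signals, at which a difference can be missed.

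The surrogate light chain gave 1 of the called members. Igll1, the λ5 chain, gave 4.61 intensity units with NSD, where it was not well above background, and 8.30 with HSD. It was at least 1.95-fold higher with HSD, but it entered the count only because the HSD array lifted it over background, and with the normexp background correction its log2 fold change was 0.15. Vpreb1, the chain that pairs with λ5 and the next protein-coding gene on chromosome 16, had 52.2 and 53.9 (log2 fold change 0.16). Vpreb1 was thus far below 1.5-fold, unlike its partner, whose bound depended on the background. Vpreb3, a protein of the endoplasmic reticulum that binds antibody chains in precursors, had 259.2 and 237.7 (log2 fold change −0.010).

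Cd24a and Ly6d are also made outside the B lineage. Cd24a, the heat-stable antigen of precursors and of many other cells, had 16719.8 with NSD and 18953 with HSD (log2 fold change 0.30). Ly6d, a marker of early B lymphoid progenitors that epithelia also make, had 116.6 and 151.5 (log2 fold change 0.49). Neither was called.

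The mature B cell genes lay higher as a group than the precursor genes. All 21 were well above background on both arrays, 17 had a log2 fold change above 0, and the median was 0.46. Bank1 was the single one at or above 1.5-fold, and 10 others had values from 0.46 for Cd37, which is 1.37-fold, to 0.583 for Bach2. Among these, the second probes of Cd37 (0.25), Pax5 (0.23), Tnfrsf13c (0.22) and Bach2 (−0.049) had lower values, and that of Cr2 (0.78) a higher one. The difference between the stages was not tested, since genes of a list are not replicates.

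**Figure D2:**
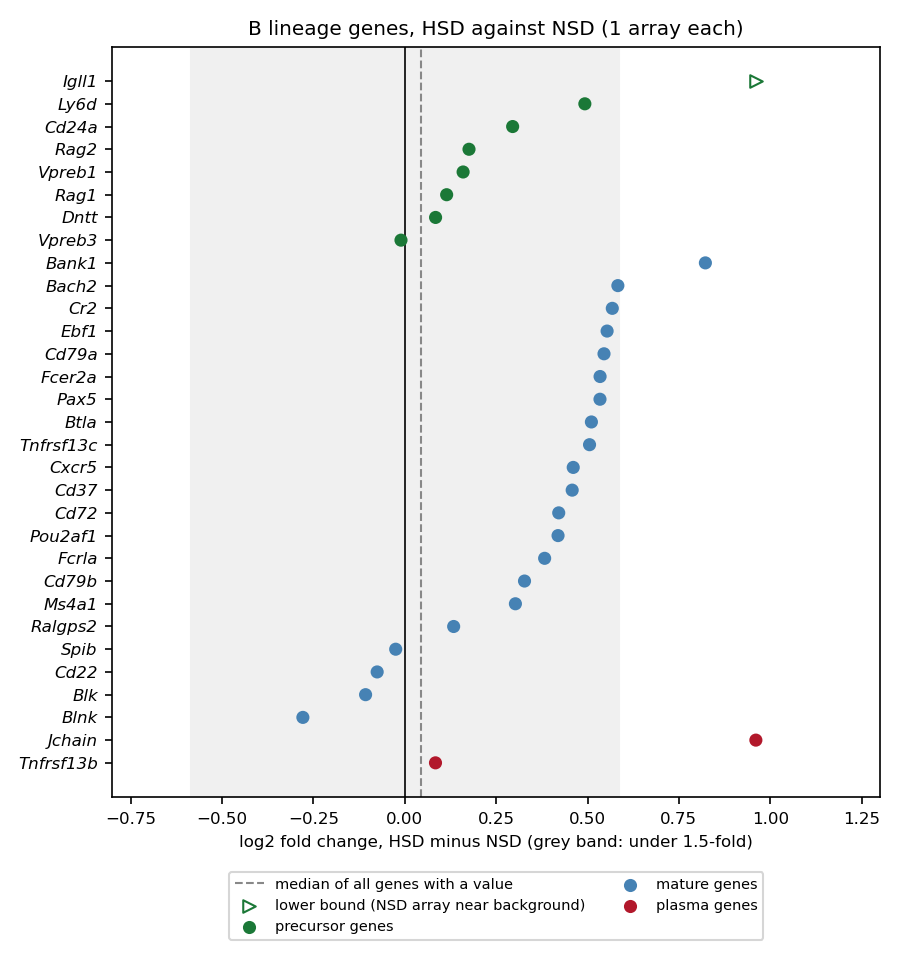
The log2 fold change (HSD minus NSD, 1 array each) of the 31 members with a value, coloured by stage; the grey band holds changes under 1.5-fold and the dashed line is the median of all genes, 0.045. Only Igll1 (a lower bound), Bank1 and Jchain lie outside the band, and 10 mature genes lie between 0.46 and its upper edge.

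Among the transcription factors, 4 of 5 were above 0 and none was called. Pax5, which commits cells to the B lineage, had 42.3 with NSD and 56.6 with HSD (log2 fold change 0.53), and its second probe had 0.23. Ebf1, which acts with Pax5 and before it, had 132.0 and 179.0 (log2 fold change 0.55). Bach2, a repressor that holds back the plasma cell programme, had 238.8 and 330.5 (log2 fold change 0.583, beside the threshold of 0.585). Bach2 passed 1.5-fold when the arrays were scaled on the median (0.589) or in the deposited log2 values (0.615). Its dim second probe was at least 1.03-fold lower, and the median over both probes was 0.27. With that median Pax5 had 0.38, so the values of both factors depend on the probe. Pou2af1, the octamer coactivator, had 760.5 and 939.6 (log2 fold change 0.42). Spib, an Ets factor of B cells and of plasmacytoid dendritic cells, had 1746 and 1586 (log2 fold change −0.025) and was the factor that did not lie above 0.

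Of the antigen receptor chains and the signalling proteins around them, 5 of 7 were above 0 and Bank1 was called. Cd79a had 27.7 with NSD and 37.4 with HSD (log2 fold change 0.55, and 0.30 with the normexp correction). Cd79b had 3519 and 4080.1 (log2 fold change 0.33). Neither receptor chain was called. Bank1, a scaffold protein in B cell receptor signalling, had 211.9 and 346.3 (log2 fold change 0.82). Its second probe, with 81.6 and 126.6, had a log2 fold change of 0.75, and Bank1 stayed above 1.5-fold in all 11 other settings that gave fold changes (0.71 to 0.87). Fcrla, an intracellular Fc receptor-like protein of B cells, had 1570 and 1891 (log2 fold change 0.38).

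Blnk, Blk and Ralgps2 had the lowest values of the signalling genes. Blnk, the adaptor that links Syk to downstream enzymes and that myeloid cells also express, had 1446 with NSD and 1101 with HSD, with a log2 fold change of −0.28, the lowest of the members. Blk, a Src family kinase of B cells, had 19.9 and 17.1 (log2 fold change −0.11, and 0.069 with the normexp correction). Ralgps2, a guanine nucleotide exchange factor for Ral, had 96.9 and 98.2 (log2 fold change 0.13), with SDs between its 10 spots of 0.038 and 0.10 on the log2 scale. Ralgps2 was thus far below 1.5-fold.

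Of the surface receptors, 8 of 9 were above 0 and none was called. Ms4a1, which encodes CD20, had 1727 with NSD and 1968 with HSD (log2 fold change 0.30). Cr2, the complement receptor of B cells, had 373.8 and 511.9 (log2 fold change 0.57), and its second probe, with 139.4 and 221.4, had 0.78. Taken as the median of its probes (0.67), Cr2 would count as called. Fcer2a, which encodes CD23, had 105.9 and 141.6 (log2 fold change 0.53). With the normexp correction the values were 0.35 for Cr2 and 0.30 for Fcer2a, further below 1.5-fold.

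Receptors for survival and homing signals had like values. Tnfrsf13c, the BAFF receptor, had 596.4 with NSD and 782.1 with HSD (log2 fold change 0.51), and its second probe had 0.22. Cxcr5, which guides B cells to follicles, had 285.4 and 362.9 (log2 fold change 0.46). Btla, an inhibitory receptor shared with T cells, had 243.9 and 321.0 (log2 fold change 0.51). None of them was called.

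Of the remaining coreceptors, Cd22 stood apart. Cd37, a tetraspanin of B cells that other leukocytes also carry, had 6671 and 8466 (log2 fold change 0.46), and its second probe had 0.25. Cd72, an inhibitory lectin, had 665.8 and 823.6 (log2 fold change 0.42), and its second probe had 0.57. Cd22, another inhibitory lectin, had 947.7 and 830.9 (log2 fold change −0.075). Over all members, 10 had a second probe, and in the 7 of these whose probes were both well above background on both arrays, both probes were above 0. Left out by this filter were Rag1 and Rag2, with second probes too dim, and Bach2, whose second probe was below 0 (−0.049). Of the 7, Tnfrsf13b was above 0 only after scaling, as both its probes had lower signals with HSD (50.4 and 49.3, 20.4 and 19.1).

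The plasma cell genes split. Jchain, the chain that joins antibodies into polymers, had 1205 intensity units with NSD and 2166 with HSD, a 1.95-fold difference (log2 fold change 0.96). It was the member with the largest change among those well above background on both arrays, and it stayed above 1.5-fold in all 11 other settings (0.85 to 0.97). Tnfrsf13b, the receptor TACI, had 50.4 and 49.3 (log2 fold change 0.084), and its second probe had 0.018. The value of TACI turned to −0.013 with the normexp correction and to −0.030 without scaling. Tnfrsf17, the receptor BCMA of plasma cells, had 4.06 and 3.68, too dim on both arrays for a fold change.

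The other B lineage genes were mixed in direction. Of 26 such genes, 18 were above 0 and 8 below, with a median log2 fold change of 0.24. Past 1.5-fold, 4 were higher and 2 lower, where 9.85% of all genes were higher and 10.3% lower. Fcmr, the IgM Fc receptor, had 2774 with NSD and 4619.6 with HSD (log2 fold change 0.85). Irf4, a factor of activated B cells and plasma cells, had 83.1 and 131.5 (log2 fold change 0.78). Foxo1, a factor of precursors and of many other cells, had 345.0 and 512.5 (log2 fold change 0.69), and Cd55, a complement regulator on many cells, had 1380 and 1994 (log2 fold change 0.65). With other settings their lowest values were 0.51 for Irf4, 0.41 for Foxo1 and 0.53 for Cd55, all below 1.5-fold. Il7r, which precursors of B cells need but T cells carry as well, was the furthest from the rest. It had 809.3 and 214.5 (log2 fold change −1.80). Cd180, a TLR4-like receptor of B cells and myeloid cells, had 27.0 and 12.6 (log2 fold change −0.99, and −0.18 with the normexp correction).

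Of 18 components of antigen receptor signalling that myeloid cells share, 4 were at least 1.5-fold higher, against 9.85% of all genes. The others were not called. The median log2 fold change was 0.35, with 17 above 0 and Lyn below (−0.10). Bcl10, an adaptor on the way to NF-κB, had 5239 with NSD and 7801 with HSD (log2 fold change 0.69). Malt1, a protease that acts with Bcl10, had 679.6 and 1016 (log2 fold change 0.70). Btk, the Tec kinase of B cells that myeloid cells also use, had 1088 and 1774 (log2 fold change 0.82). Without scaling, Bcl10 and Malt1 were just below 1.5-fold (0.57 and 0.58), as was Bcl10 with cyclic loess (0.58).

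Ligands that act on B cells were split in direction. Of 13 listed genes, 12 had a probe, 7 gave a fold change, and 3 of these were above 0 and 4 below, with a median log2 fold change of −0.14. Tnfsf13b, which encodes BAFF, the ligand of Tnfrsf13c, had 216.5 with NSD and 254.7 with HSD (log2 fold change 0.35). Cxcl13, the ligand of Cxcr5, was too dim on both arrays for a fold change, with 2.84 and 1.11. Cxcl12, which retains precursors in bone marrow, had 7.53 with NSD and 3.91 with HSD. The HSD value was too dim to count as measured, so Cxcl12 was at least 1.58-fold lower, and with the normexp correction its log2 fold change was −0.012. Tnfsf13 found no matching probe.

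**Figure D3:**
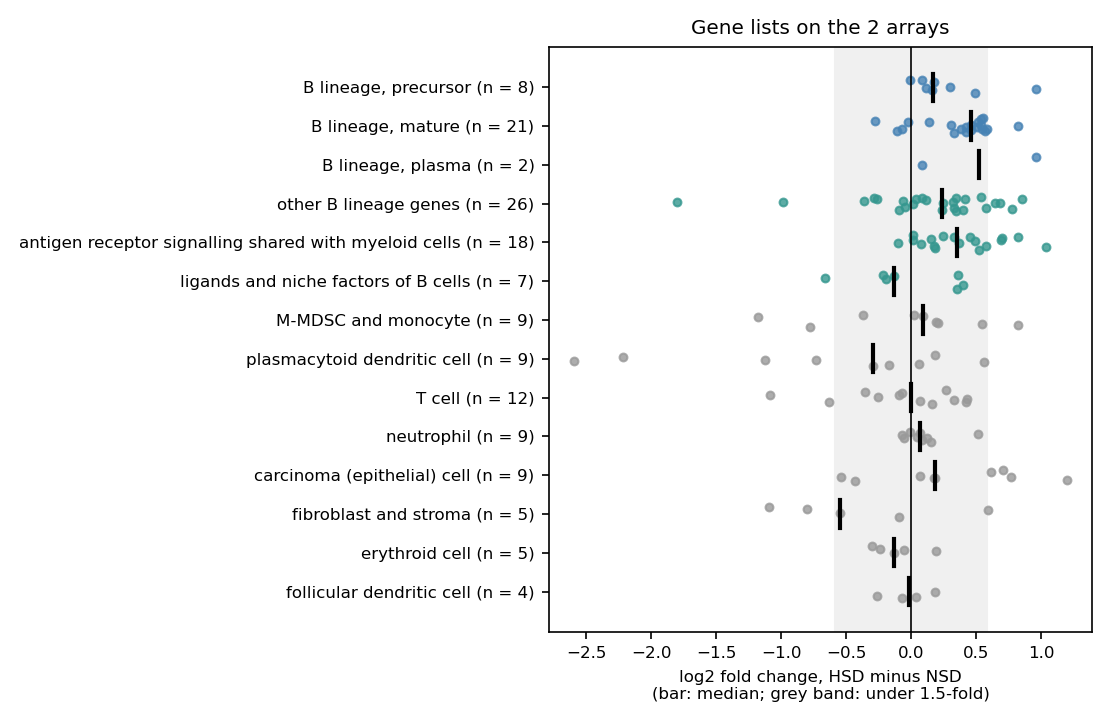
The log2 fold change (HSD minus NSD) of every gene with a value in the B lineage stages (blue), the companion lists (green) and the cell type markers (grey), with the median of each list as a black bar and changes under 1.5-fold in grey. The mature B lineage genes have a median of 0.46, the signalling genes shared with myeloid cells one of 0.35 and the T cell markers one of −0.0044.

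Markers of other cells were measured beside these genes. Of the labelled cell type, Itgam had 31564 and 31043 intensity units and all 9 monocyte genes with a probe were well above background on both arrays, while Ly6c2 had no matching probe. Their median log2 fold change was 0.090 and their summed signals were 119556 and 117858. Summed signals, here and for the other cells, are before scaling, whereas the log2 fold changes are after it. Over all genes, 9.85% were at least 1.5-fold higher and 10.3% lower. Of the monocyte genes past 1.5-fold, Cd14 was higher (2337 and 3804, log2 fold change 0.82), and Ms4a6c (765.0 and 311.2, −1.18) and Ccr2 (258.9 and 139.0, −0.78) were lower. These genes, and Trat1, Cd3d and Lck among the T cell markers, were chosen for naming after their values were seen. All 9 neutrophil genes with a probe were bright as well, with a summed signal of 317768 with NSD and 305658 with HSD and a median log2 fold change of 0.069. Ly6g had no matching probe. All 12 T cell markers were well above background on both arrays, with summed signals of 3429 and 3845, and 6 were above 0 and 6 below. Past 1.5-fold, Cd3e (114.7 and 49.8, log2 fold change −1.09) and Trat1 (31.0 and 18.4, −0.64) were lower and none was higher, beside the same shares of all genes. The highest values were 0.43 for Cd3d and 0.42 for Lck. The T cell markers were thus evenly split in direction.

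The markers of plasmacytoid dendritic cells, which share Spib with B cells, were below 0 in 6 of 9. Their median was −0.30 and their summed signals were 17823 and 16212. At least 1.5-fold lower were 4, against 10.3% of all genes. These were Irf7 (log2 fold change −2.60), Bst2 (−2.22), Klk1 (−1.13) and Ccr9 (−0.74). Above 0 were 3, namely Tcf4 (0.56), Pacsin1 (0.18) and Siglech. Siglech, the defining surface lectin of these cells, had 13705 and 13214 (log2 fold change 0.062, below 0 in 5 of the other settings). The carcinoma markers, relevant to Cd24a and Ly6d, were dim, with summed signals of 193.9 and 189.6 over 10 genes. Of the 9 with a value, 4 were at least 1.5-fold higher, against 9.85% of all genes. Among these 4, Epcam had 14.5 and 21.8 (log2 fold change 0.70, and 0.23 with the normexp correction). Krt8, also among them, had 8.68 and 12.2 (log2 fold change 0.61, below 1.5-fold in 6 of the other settings). Krt18 (log2 fold change 0.76) and Cldn3 (a lower bound, 1.20) were the others. Below 0 were 2 of the 9, Krt5 (46.6 and 29.5, log2 fold change −0.54) and Cdh1 (45.0 and 30.8, −0.43). The probe of Cdh1 had 10 spots on each array. The stromal markers had summed signals of 170.6 and 148.3, with Col1a1 at 89.1 and 77.2 (log2 fold change −0.092). Their median was −0.55 over 5 genes, 1 of them at least 1.5-fold higher and 2 lower, against 9.85% and 10.3% of all genes. Erythroid markers had a median of −0.13 over 5 genes, with summed signals of 27969 and 24682, and the markers of follicular dendritic cells, which carry Cr2 and Fcer2a, had one of −0.019 over 4, with 497.7 and 433.4. The part of any of these cells in the values of the B lineage genes was not tested.

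The shift of the members against all genes was seen under every processing that was run. Their median log2 fold change was between 0.30 and 0.43, while that of all genes was between −0.070 and 0.078. Of the 26 members above 0, 24 stayed above 0 in every setting that gave them a value, the exceptions being Dntt and Tnfrsf13b.

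**Figure D4:**
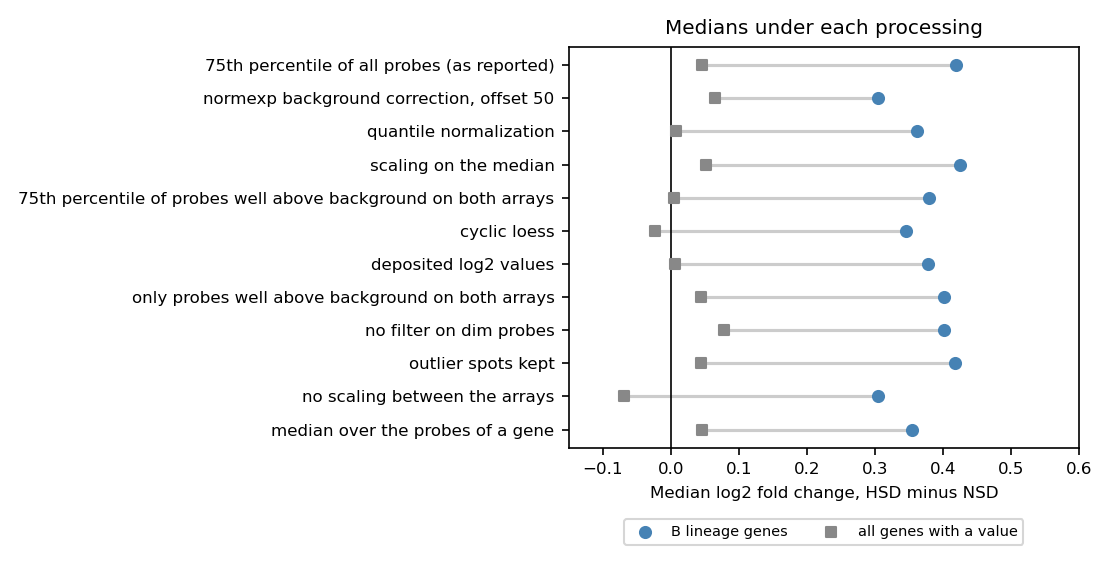
Median log2 fold change (HSD minus NSD) of the B lineage genes (circles) and of all genes with a value (squares) under each processing, the topmost being the one reported. The medians of the members lie between 0.30 and 0.43 and those of all genes between −0.070 and 0.078.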

How the data were processed

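Total RNA of pooled M-MDSCs was labelled with Cy3 and hybridised to Agilent mouse arrays, 1 array per diet. The authors deposited scanner output from Feature Extraction 11.0.1.1, whose processed intensity has the background subtracted and trends across the slide removed. The median spot and background intensities, also deposited, served only the normexp correction. A table of log2 values, normalized with GeneSpring by the authors, was deposited as well. Its 2 columns have the same median (4.61) and, once sorted, differ by at most 0.052, as quantile-normalized columns would. It was used as an alternative. The normalization method is not given in the sources used here.

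Control spots were left out, as were outlier spots, 162 with NSD and 179 with HSD. Signals were taken to log2, spots of a probe were averaged, and each array's 75th percentile was subtracted. Of 39413 probes, 27223 were named through RefSeq transcripts (GRCm38.p6), without versions, and the probe with the highest mean log2 signal stood for a gene. A probe was well above background when at least 50% of its spots were. Where this failed on 1 array, the fold change is a lower bound, taken against the array's lowest signal well above background (4.61 for NSD, 4.39 for HSD) or the dim signal itself, whichever was higher. Fold changes are HSD over NSD.

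Named were all 32 members, companion genes at least 1.5-fold apart, Tnfsf13b, Tnfsf13, Cxcl13 and defining markers of other cells, apart from some companion genes that are not reported here. Members and lists were chosen with earlier results of these data known, and further markers of other cells were named after their values were seen. The steps were tested on simulated data. The number of arrays limits the precision. Other background corrections, scalings, filters and probe choices were tried as alternatives. Python 3.11.15, numpy 2.4.6, pandas 2.3.3, matplotlib 3.10.9, R 4.3.3 and limma 3.58.1 were used.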

Additional observations from a re-analysis of the deposited data

How the results depend on the processing

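Tried were cyclic loess, quantile normalization, the deposited log2 values, normexp (offset 50), scaling on the median or on detected probes, stricter and no filters on dim probes, outlier spots kept, the median of a gene's probes, a 2-fold threshold and, chosen after seeing the data, no scaling. The count of members at least 1.5-fold higher was 3, was between 2 and 4 under the settings with that threshold and was 0 at 2-fold. None was at least 1.5-fold lower in any setting. The median of the members, 0.42, was 0.30 with normexp and 0.31 without scaling, which moved all genes from 0.045 to −0.070. Over all genes, 1608 were higher and 1682 lower; the counts were 619 and 655 with normexp and 428 and 681 at 2-fold, and 2903 were higher without a filter. The calls were higher in 48.9% as reported, in 38.5% with cyclic loess and in 32.7% without scaling. The causes were not tested. Dim genes such as Igll1 are limited by signal over background. No paired analysis was possible because each diet has 1 array.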
